A study of Mus musculus with 8 samples.

Results

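The enzymes described here make serine, pass its carbon on to folate, and make proline. They were chosen by gene symbol as a list of 10 genes, Phgdh, Psat1, Psph, Shmt1, Shmt2, Mthfd2, Mthfd1l, Aldh1l2, Pycr1 and Aldh18a1. The array's annotation gave 24 of its 45101 probe sets to 9 of these genes by a single symbol, and all 24 passed the filter on low signal, which left 25236 probe sets in all. No probe set was named for Pycr1, so it has no value here, and 2 further probe sets carried Phgdh together with a second symbol and were not used.

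Serine synthesis branches from glycolysis, where Phgdh oxidises phosphoglycerate, Psat1 transfers an amino group from glutamate and Psph removes the phosphate. The serine hydroxymethyltransferases, cytosolic Shmt1 and mitochondrial Shmt2, split serine into glycine and a folate-bound carbon unit, which Mthfd2, Mthfd1l and Aldh1l2 then oxidise, release as formate or burn off in the mitochondrion. Aldh18a1 reduces glutamate to the precursor of proline and ornithine, and Pycr1 makes proline from it. Most of these genes are known targets of the transcription factor Atf4, which acts when amino acids run short or protein folding is disturbed, and proliferating cultured cells use their products for nucleotides, glutathione and collagen.

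Total RNA from cultured mouse cells was measured on 8 Affymetrix arrays, 1 for each sample. NIH3T3, an embryonic fibroblast line, gave 1 control array and 3 arrays labelled as PGC7 overexpression by viral infection, from clone 1, clone 2 and an uncloned population. B16F10, a melanoma line, gave 1 control array and 3 arrays with the same label from clones 1, 2 and 3, and PGC7 arrays below means arrays so labelled. PGC7, also named Stella and encoded by Dppa3, is a maternal factor that shields DNA methylation in the early embryo. The characteristics field of all 6 PGC7 samples reads PGC8 and calls them pre-cloned, so groups follow the sample titles. Both lines grew in the same serum-containing medium. The labels give the same infection protocol for all 8 samples and do not say what virus, if any, a control received. Nor do they say whether clones and the uncloned population came from separate infections, so the spread behind each p-value is that among these arrays, which may be technical. Each control is a single array whose spread was taken to equal that of the PGC7 arrays.

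Signals are in arbitrary units after every array was scaled to a trimmed mean of 500, and changes are differences of log2(signal + 9), which understates the change of dim probe sets. Probe sets were called at an adjusted p under 0.05 in limma, and a gene is given by its brightest tested probe set unless another is named. The correlation between arrays was 0.679 to 0.698 between the lines, 0.912 to 0.920 between the NIH3T3 control and its PGC7 arrays, and 0.970 to 0.977 between those of B16F10. Melanocyte markers summed to 112865 to 148950 on the B16F10 arrays, with 10 of 10 above the filter level on each, and to 667 to 953 on the NIH3T3 arrays. Fibroblast markers summed to 128431 in the NIH3T3 control and 85854 to 93682 in its PGC7 arrays, against 638 to 932 in B16F10. Epithelial and macrophage lists stayed between 132 and 1178 throughout, the highest sums being those of the macrophage list in NIH3T3 PGC7 arrays (920 to 1178, control 573). The part of these markers in the results below was not tested, and in bulk RNA fewer expressing cells cannot be told apart from less RNA per cell. Dppa3 itself was dim, with 69.8 in the NIH3T3 control and 101 (uncloned), 29.7 (clone 1) and 55.4 (clone 2) beside it. In B16F10 it had 23.5 in the control and 70.0, 117 and 71.0 in the clones. Clones 1 and 2 of NIH3T3 thus lay below their control, against the label, while every B16F10 clone lay above its own. Dppa3 was called in neither line (adjusted p = 0.802 and 0.27), and the sources do not say whether its probe set reads the virus-borne sequence.

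For 6 of the 9 measured enzyme genes the change from control to the arrays labelled PGC7 differed between the 2 lines by the test of that difference. None of the 9 was called in both lines, where 12.8% of all probe sets were called in NIH3T3 and 1.19% in B16F10. The share of all probe sets called in both was not counted. In B16F10 the signals of Psph, Mthfd2, Aldh18a1, Aldh1l2 and Psat1 were 1.89 to 3.06 times the control after the offset, and in NIH3T3 the same 5 genes lay below the control. Of these changes only those of Psph in B16F10 and Aldh1l2 in NIH3T3 were called. Phgdh was the sixth gene called for the difference between the lines, and all 6 had the higher value in B16F10. Over all tested probe sets this difference was called higher in 3.8% and lower in 3.08%. These shares are by probe set and the count of 6 is by gene. With probe sets averaged to 1 value for each gene, 5 of the 9 were called, and 9.01% of all genes in either direction. Shmt1, Shmt2 and Mthfd1l were not called for the difference between the lines. The median of the 9 genes was 1.53 on the log2 scale, against 0.09 over 11643 genes.

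**Figure D1:**
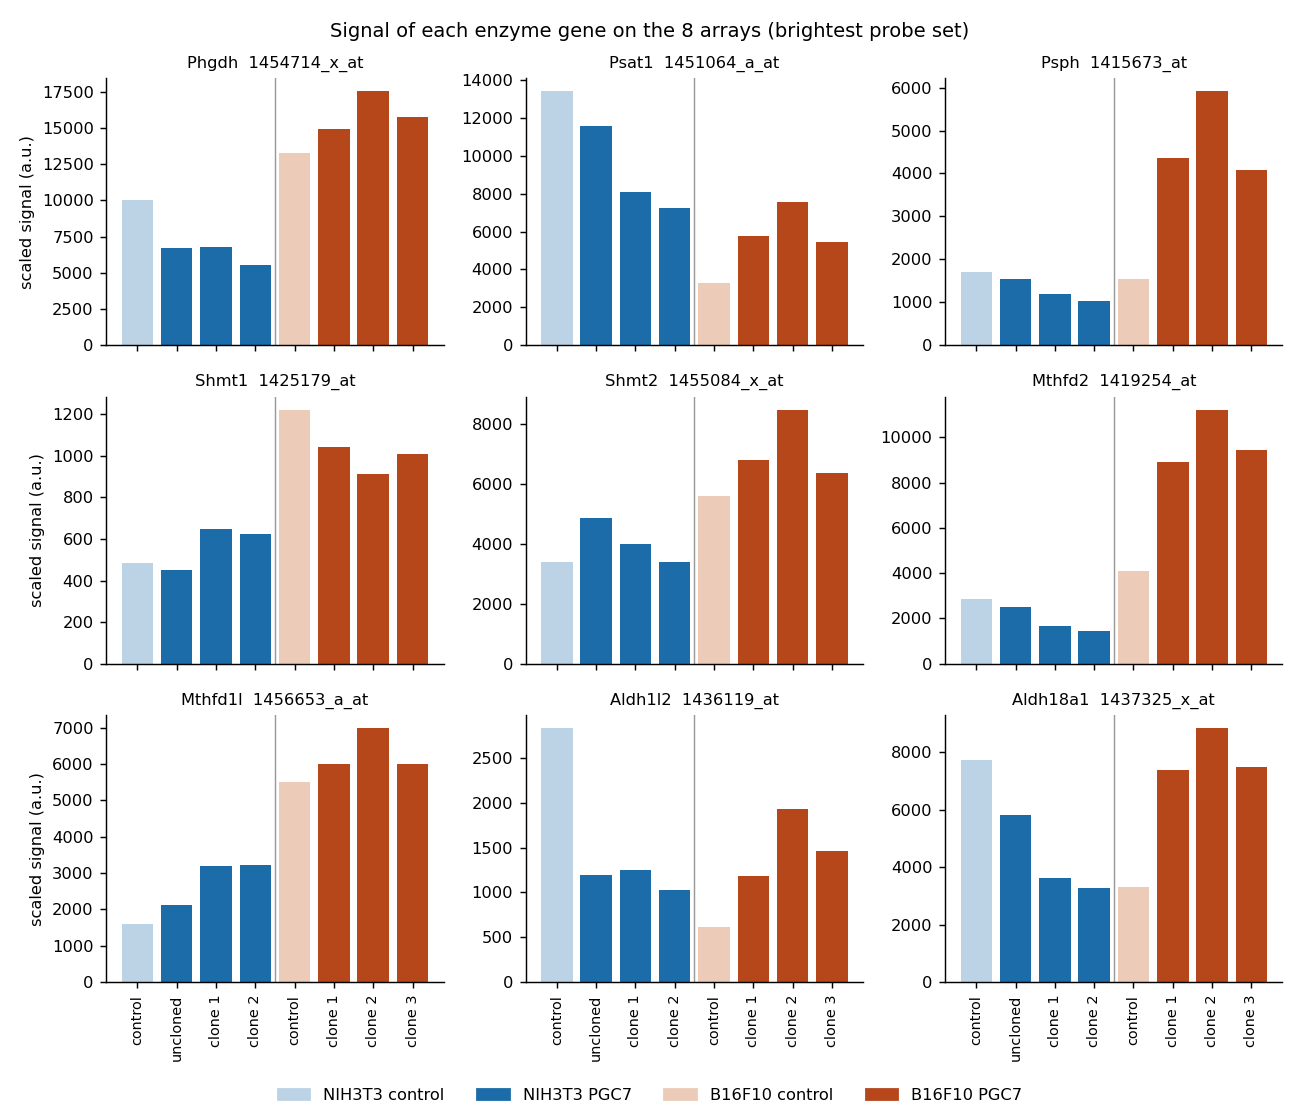
Scaled signal in arbitrary units (vertical axis, from 0, own range in each panel) of the brightest probe set of each of the 9 measured genes on the 4 NIH3T3 arrays (blue) and 4 B16F10 arrays (orange), with 1 bar for each array and the controls in pale colour. In 6 panels the NIH3T3 control is above, and the B16F10 control below, all 3 PGC7 arrays of its line.

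The first enzyme of the serine pathway, Phgdh (1454714_x_at), had a signal of 10051 in the NIH3T3 control, and its PGC7 arrays had 6730 (uncloned), 6760 (clone 1) and 5513 (clone 2). All 3 PGC7 arrays were below the control, and the fall of 0.67 ± 0.14 (log2, ± SE) was called (adjusted p = 0.02). In B16F10 its control had 13242 and clones 1, 2 and 3 had 14932, 17549 and 15767, a change of 0.28 ± 0.14 that was not called (adjusted p = 0.42). Every clone was above the control there, although clone 1 only slightly. The change in B16F10 exceeded that in NIH3T3 by 0.95 ± 0.20 (adjusted p = 0.0309). This difference was called in 8 of 15 alternatives (range of adjusted p 0.00994 to 0.812). Of its 4 probe sets, 1437621_x_at was also called for the fall and the difference, while 1426658_x_at and 1456584_x_at were called for neither (differences of 0.74, adjusted p = 0.0753, and 0.51, adjusted p = 0.329), and in the last of these NIH3T3 clone 2 was above the control. The call for the fall in NIH3T3 was lost with that line's own arrays alone (adjusted p = 0.0974), without the intensity trend of the variance (0.0895) and on the poly-A scale given below (0.355, range over the alternatives 0.00717 to 0.355).

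Psat1 (1451064_a_at), the aminotransferase, had its highest signal in the NIH3T3 control, 13422, followed by 11574 (uncloned), 8117 (clone 1) and 7269 (clone 2). The uncloned array thus stood nearer the control than either clone did, and the change of -0.61 ± 0.26 was not called (adjusted p = 0.162). In B16F10 the order was turned, with 3263 in the control and 5744, 7539 and 5429 in the clones (0.92 ± 0.26, adjusted p = 0.143). The 2 changes differed by 1.53 ± 0.37 (adjusted p = 0.0439), a call made in 4 of 15 alternatives (range of adjusted p 0.00283 to 0.216). Its second probe set, 1454607_s_at, gave -0.76 in NIH3T3 and 0.42 in B16F10, and its difference of 1.18 was not called (adjusted p = 0.134).

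Psph (1415673_at), the phosphatase of the final step, was the single enzyme gene called in B16F10. Its control signal of 1537 stood against 4366, 5918 and 4075 in clones 1, 2 and 3, a rise of 1.61 ± 0.26 or 3.06-fold (adjusted p = 0.0263). No clone came near the control. The NIH3T3 control started at a similar signal, 1705, but its PGC7 arrays went down to 1540 (uncloned), 1198 (clone 1) and 1021 (clone 2) (-0.46 ± 0.26, adjusted p = 0.276). The difference between the lines was 2.08 ± 0.36 (adjusted p = 0.0143).

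Mthfd2 (1419254_at), a mitochondrial folate dehydrogenase that is high in embryos and tumours and low in most adult tissue, had 4089 in the B16F10 control and 8911, 11229 and 9461 in the clones. The change of 1.26 ± 0.27 was not called (adjusted p = 0.0747). Against a control of 2840, the NIH3T3 PGC7 arrays had 2519 (uncloned), 1677 (clone 1) and 1423 (clone 2) (-0.64 ± 0.27, adjusted p = 0.164). Again the uncloned array lay between the control and the clones. The lines differed by 1.90 ± 0.39 (adjusted p = 0.0254), called in 8 of 15 alternatives (range of adjusted p 0.000568 to 0.0866). Its second probe set, 1419253_at, gave -0.54 in NIH3T3 and 1.12 in B16F10, also called for the difference.

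Aldh1l2 (1436119_at), which oxidises formyl-folate to carbon dioxide in the mitochondrion and yields NADPH, fell most in NIH3T3. From a control of 2834 it went to 1190 (uncloned), 1245 (clone 1) and 1022 (clone 2), a fall of 1.30 ± 0.25 (adjusted p = 0.012). The uncloned array was here as low as the clones, unlike Psat1 and Mthfd2. In B16F10 it had 613 in the control and 1178, 1928 and 1459 in the clones (1.27 ± 0.25, adjusted p = 0.0546). It had the largest difference between the lines of the 9 genes, 2.57 ± 0.35 (adjusted p = 0.006), and this call held in 15 of 15 alternatives.

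Mthfd1l (1456653_a_at), the mitochondrial enzyme that releases formate, had another pattern. Its NIH3T3 control had 1599, below 2109 (uncloned), 3197 (clone 1) and 3220 (clone 2) (0.80 ± 0.23, adjusted p = 0.0557). No other enzyme gene had so high a change in that line, and this rise was called in 4 of 16 alternatives. In B16F10 the control had 5518 and the clones 6010, 6988 and 5998 (0.19 ± 0.23, adjusted p = 0.754). The difference between the lines was -0.60 ± 0.33 (adjusted p = 0.314).

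Shmt2 (1455084_x_at) had 3392 as its NIH3T3 control signal, with 4873 (uncloned), 3974 (clone 1) and 3398 (clone 2), so that clone 2 lay almost at the control. In B16F10 it had 5576 in the control and 6778, 8475 and 6373 in the clones. Neither change was called (0.25 ± 0.21, adjusted p = 0.488, and 0.36 ± 0.21, adjusted p = 0.479), and they differed by 0.11 ± 0.30. Dimmer probe sets gave 0.40 in NIH3T3 and 0.73 in B16F10 (1426423_at), 0.29 and 0.05 (1455985_x_at), and -0.91 and -0.08 (1434204_x_at). The cytosolic paralogue Shmt1 (1425179_at) had 486 in the NIH3T3 control and 453 (uncloned), 650 (clone 1) and 626 (clone 2), so the control lay within the range of the others. In B16F10 its control had 1223 and its clones 1041, 913 and 1010 (-0.31 ± 0.22, adjusted p = 0.573). Shmt1 was the only one of the 9 genes with a B16F10 control above every clone. All 4 of its probe sets had a negative value there (-0.34 to -0.21), although none was called. In NIH3T3 its probe sets ran from -0.52 to 0.27.

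Aldh18a1 (1437325_x_at), the entry enzyme of proline synthesis, stepped down in NIH3T3 from a control of 7737 to 5820 (uncloned), 3625 (clone 1) and 3277 (clone 2). The B16F10 control had 3301, about the signal of the NIH3T3 clones, and clones 1, 2 and 3 had 7369, 8847 and 7508. Neither change alone was called (-0.91 ± 0.28, adjusted p = 0.065, and 1.25 ± 0.28, adjusted p = 0.0787), but their difference was, at 2.17 ± 0.39 (adjusted p = 0.0167). All 5 probe sets of Aldh18a1 had negative values in NIH3T3 (-0.91 to -0.45) and positive ones in B16F10 (1.01 to 1.47), and 4 of the 5 were called for the difference.

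**Figure D2:**
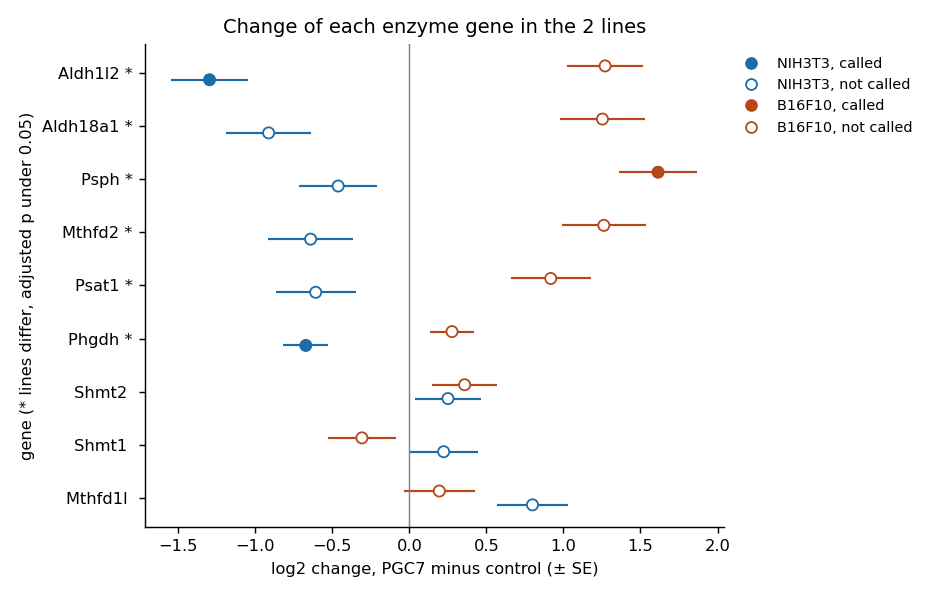
Change of the 9 measured genes (vertical axis, ordered by the difference between lines) from control to PGC7 on the log2 scale (horizontal axis) in NIH3T3 (blue) and B16F10 (orange). Points are estimates of the fit to all 8 arrays, bars are ± SE, filled points were called and a star marks genes called for the difference between lines. The 6 genes with a star have their blue point left of 0 and their orange point right of it.

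Counted over the 9 genes, 2 fell and 0 rose in NIH3T3 (Aldh1l2 and Phgdh), where 6.32% of all tested probe sets were called lower and 6.47% higher. At an unadjusted p under 0.05 the counts were 5 lower and 1 higher. In B16F10, 1 rose and 0 fell, where 0.923% of all probe sets were called higher and 0.265% lower. At an unadjusted p under 0.05 it was 5 higher and 0 lower there. The share of all probe sets at the unadjusted threshold was not counted, so counts at it have no background to be read against. Median changes were -0.61 in NIH3T3 and 0.92 in B16F10, with -0.04 and 0.05 over all genes. With cell line as an additive term 0 genes were called across both lines, in limma as run here and in 15 of 15 alternatives. Of all probe sets, 0.127% were called higher and 0.0277% lower in that test, and 1 of the 9 genes, Mthfd1l, had an unadjusted p under 0.05.

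These counts went with single arrays. Without the uncloned NIH3T3 array, 6 genes were called in NIH3T3 (5 lower and 1 higher), 5 in B16F10 and 8 for the difference between lines. Of those 8, 6 were higher and 2 lower, Mthfd1l (-0.81) and Shmt1 (-0.69). Calls over all tested probe sets went up as well without that array. They were 23.9% in NIH3T3 (12.8% with all arrays), 7.08% in B16F10 (1.19%) and 17.2% for the difference (6.88%). With the 4 B16F10 arrays alone, 5 were called higher, namely Psph, Mthfd2, Aldh18a1, Aldh1l2 and Psat1, and 8.70% of all probe sets were called. Without any 1 of the B16F10 clones, or without NIH3T3 clone 1, the call of Psph in B16F10 was lost and the count was 0. In these fits 0.235% to 0.556% of all probe sets were called in B16F10. Without a B16F10 clone, 3 genes were called for the difference, whichever clone was left out, and 2.95% to 3.91% of all probe sets.

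The order of the arrays showed the same division without a test. The NIH3T3 control was above all 3 PGC7 arrays for 6 of 9 genes, and for 38.3% of all tested probe sets. The B16F10 control was below all 3 clones for 8 of 9 genes, and for 37% of probe sets. Both held at once for Phgdh, Psat1, Psph, Mthfd2, Aldh1l2 and Aldh18a1, 6 of 9, and for 13% of probe sets. Of the 24 probe sets of the enzyme genes, 13 had this order.

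**Figure D3:**
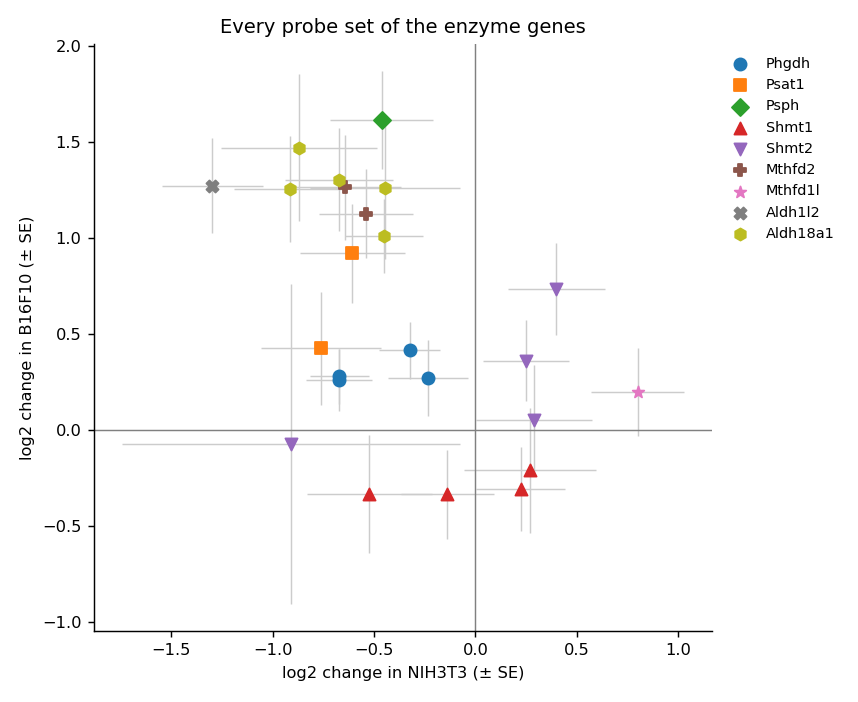
Change on the log2 scale in NIH3T3 (horizontal axis) and in B16F10 (vertical axis) for all 24 probe sets of the 9 genes, coloured by gene, with ± SE as grey bars. The probe sets of Phgdh, Psat1, Psph, Mthfd2, Aldh1l2 and Aldh18a1 lie left of 0 and above 0, and those of Shmt1, Shmt2 and Mthfd1l lie elsewhere.

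Within the PGC7 arrays of a line, part of the genes also shared an order, more of them in B16F10 than in NIH3T3. Clone 2 of B16F10 had the highest of the 4 signals for 8 of 9 genes, all but Shmt1, and for 23.6% of probe sets. Its changes from the control ran up to 1.94 for Psph and 1.64 for Aldh1l2, where clone 3 had 1.40 and 1.24. The dim Dppa3 signal was highest in clone 2 as well, 117 against 70.0 and 71.0 in the others, and its part in the clone order was not tested. In NIH3T3 the uncloned array lay between the control and both clones for 5 of 9 genes (Psat1, Psph, Mthfd2, Mthfd1l and Aldh18a1), and for 27.3% of probe sets. For these genes the uncloned array differed from the control by 0.15 to 0.41 in size and clone 2 by 0.73 to 1.24.

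The directions depend on the scale of an array only in part. Added poly-A RNA, which passes through labelling with the sample, read lower in the NIH3T3 PGC7 arrays than in their control (medians of -0.50 to -0.24, log2) and higher in the B16F10 clones (0.45 to 0.80). The 3 probe sets of 18S ribosomal RNA were above the control on all 6 PGC7 arrays, with medians of 0.32 to 0.96 in NIH3T3 and 0.21 to 0.93 in B16F10, and their part in the results was not tested. Scaling on the poly-A RNA moved the median change of all probe sets to 0.19 in NIH3T3 and -0.47 in B16F10. The median difference between the lines moved from 0.11 to -0.65. On that scale Psph remained called in B16F10 (1.09, adjusted p = 0.0352, range over the alternatives 0.0049 to 0.111), while Phgdh, Shmt2 and Mthfd1l turned below 0 there. For the difference between the lines Aldh1l2, Aldh18a1 and Psph were still called higher (1.75, 1.35 and 1.26), Mthfd2 and Psat1 had 1.09 and 0.71, Phgdh had 0.13, and Mthfd1l and Shmt1 were called lower (-1.41 and -1.33).

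Between the lines themselves, averaged over control and PGC7 groups, 6 of 9 genes were called higher in B16F10 and 2 lower, where 29.6% of all probe sets were called higher and 42% lower. Mthfd1l (1.48 ± 0.16) and Mthfd2 (1.48 ± 0.19) had the largest values, and Psat1 (-1.27 ± 0.18) and Aldh1l2 (-0.91 ± 0.17) were the lower ones. Here the line cannot be told apart from how its arrays were made, and on the deposited scale 8 were called higher and 0 lower. Probe sets of 1 gene disagreed in this comparison. The ranges were -0.60 to 0.87 for Phgdh, -1.27 to 0.035 for Psat1 and -1.92 to 0.36 for Aldh18a1. They were -0.93 to 0.85 for Shmt2 and -1.30 to 1.32 for Shmt1. Changes within B16F10 did not disagree in sign for these genes, except for Shmt2 (-0.08 to 0.73). Within NIH3T3 the signs disagreed for Shmt1 (-0.52 to 0.27) and Shmt2 (-0.91 to 0.40).

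Promoter windows from RefSeq on GRCm38.p6, 250 bases before to 50 after a transcript start, were given for 9 of the 10 genes, all but Aldh1l2, in 10 windows. They were searched on both strands for TGATGNAAN, the form of the C/EBP-ATF response element bound by Atf4 dimers, and for CACGTG, the E-box bound by Myc and Max. The element was found in 1 member gene, Pycr1, and in 3.95% of all 32851 windows, and the E-box in 1, Aldh18a1, and in 7.15% of all windows. The 2 matches did not overlap each other, being in separate genes, and elements outside these windows, such as in introns, were not searched. The windows of the genes with a match are shown with it in capitals, and that of Psph because its signal rose most in B16F10. They lie on the minus strand at chr11:120643699-120643998 for Pycr1, chr19:40588414-40588713 for Aldh18a1 and chr5:129787204-129787503 for Psph, and each is written 5′ to 3′ along its gene.
Pycr1: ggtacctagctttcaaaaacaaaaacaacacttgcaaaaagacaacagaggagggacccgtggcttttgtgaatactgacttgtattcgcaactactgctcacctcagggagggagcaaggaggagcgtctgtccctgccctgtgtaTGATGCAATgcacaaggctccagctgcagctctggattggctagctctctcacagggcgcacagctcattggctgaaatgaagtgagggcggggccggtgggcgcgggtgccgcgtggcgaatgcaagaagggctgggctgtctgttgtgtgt
Aldh18a1: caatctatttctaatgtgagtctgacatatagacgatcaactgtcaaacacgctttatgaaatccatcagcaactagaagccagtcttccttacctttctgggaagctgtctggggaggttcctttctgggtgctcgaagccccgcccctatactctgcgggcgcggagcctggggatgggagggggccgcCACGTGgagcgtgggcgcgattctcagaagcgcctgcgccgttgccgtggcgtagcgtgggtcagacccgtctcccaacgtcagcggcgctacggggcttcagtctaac
Psph: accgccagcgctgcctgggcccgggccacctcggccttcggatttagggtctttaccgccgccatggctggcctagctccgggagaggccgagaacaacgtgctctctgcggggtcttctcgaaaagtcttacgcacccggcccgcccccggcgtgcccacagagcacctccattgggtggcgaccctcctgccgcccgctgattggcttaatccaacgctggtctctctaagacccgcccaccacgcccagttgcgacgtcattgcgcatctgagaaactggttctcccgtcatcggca
In Pycr1 the match read TGATGCAAT and began 103 bases before the transcript start, and in Aldh18a1 the E-box began 59 bases before it. The window of Psph held neither motif. These are matches of letters, not measured sites.

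Other genes of the same metabolism were taken from lists written by hand. Of 13 tested genes in the list of other folate genes and glycine cleavage, which holds cytosolic and mitochondrial members, 0 were called in either line. At an unadjusted p under 0.05 it was 4 lower in NIH3T3, and 7 lower and 1 higher in B16F10. The share of all probe sets at that threshold was not counted, here or for the lists below. Their median was -0.19 in NIH3T3 and -0.48 in B16F10. Tyms, thymidylate synthase, had the largest value, with 204 in the NIH3T3 control and 104, 112 and 71.1 in its PGC7 arrays (-1.05, adjusted p = 0.171), and -0.98 in B16F10. For the difference between lines 1 was called, the purine synthesis gene Atic, in the direction opposite to the serine enzymes (-0.65 ± 0.15, adjusted p = 0.0417). Of all tested probe sets, 3.08% were called lower for it.

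In the methionine cycle and transsulfuration list 3 of 8 tested genes fell in NIH3T3, where 6.32% of all tested probe sets were called lower. In B16F10, 0 were called (0 also at an unadjusted p under 0.05). Cth, which makes cysteine from cystathionine, fell by 2.24 (adjusted p = 0.0121), from 1439 in the control to 300, 482 and 182. In B16F10 Cth had 1155 in the control and 1763, 2418 and 1871 in the clones (0.79, adjusted p = 0.439), and the lines differed by 3.02 (adjusted p = 0.0235). Mtr, methionine synthase, had -0.91 and Ahcyl1, a relative of the homocysteine-forming hydrolase, -0.58 in NIH3T3, both called.

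In the proline, glutamate and ornithine list 2 of 13 rose in B16F10, where 0.923% of all tested probe sets were called higher. Asns, asparagine synthetase and a known Atf4 target, had 2978 in the B16F10 control and 8594, 11600 and 8169 in the clones (1.65, adjusted p = 0.014). In NIH3T3 it had 9485 in the control and 7820, 7292 and 5985 in the PGC7 arrays (-0.44, adjusted p = 0.21), the same order of arrays as for Psph. Gpt2, the mitochondrial alanine aminotransferase, rose by 2.56 in B16F10 (335 to 1887, 2157 and 2030, adjusted p = 0.00094). Glud1, glutamate dehydrogenase, fell by 0.52 in NIH3T3 (adjusted p = 0.0251), the 1 call of 13 there, where 6.32% of all tested probe sets were called lower. For the difference between lines Asns, Gpt2 and Oat, the ornithine aminotransferase, were called higher, where 3.8% of all tested probe sets were. The medians of the list were 0.14 in NIH3T3 and 0.19 in B16F10. Of 6 tested genes of serine use, 0 were called in either line. At an unadjusted p under 0.05, again without the share of all probe sets, it was 0 in NIH3T3 and 4 higher in B16F10. The largest value was 1.03 for Serinc5, a membrane protein named for serine incorporation, in B16F10 (adjusted p = 0.105).

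**Figure D4:**
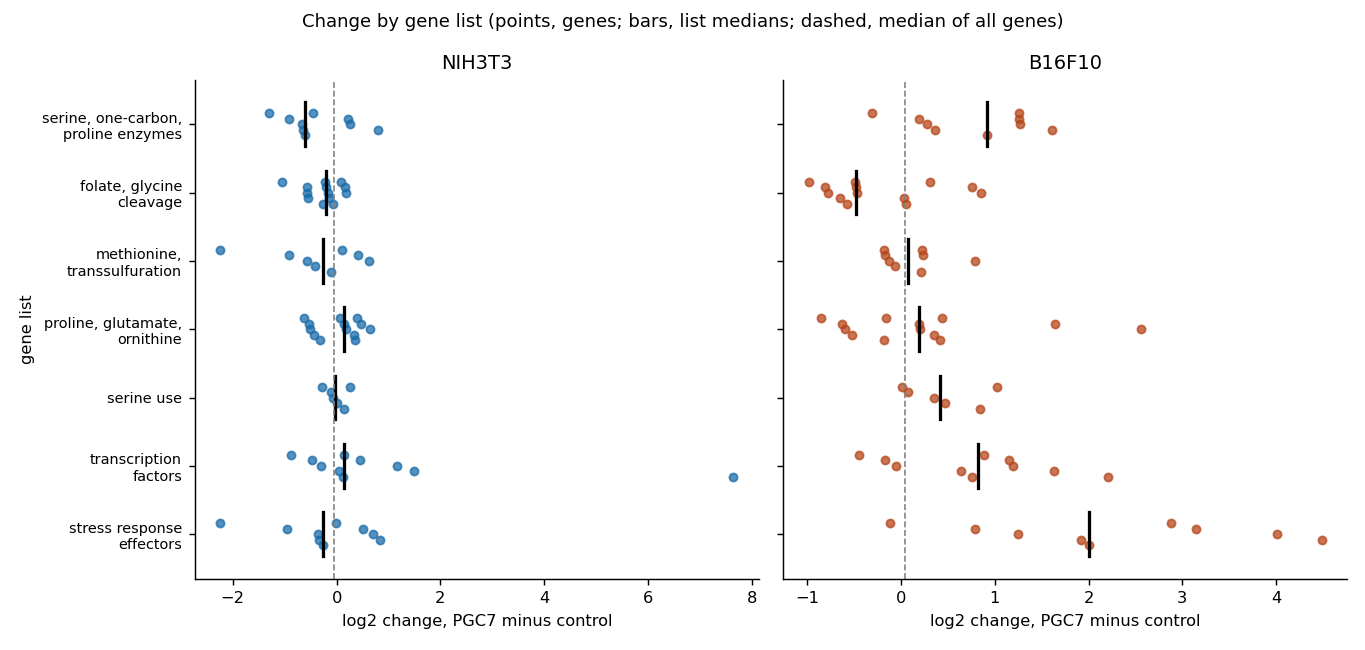
Change from control to PGC7 on the log2 scale (horizontal axes, separate ranges) of the tested genes of each list (rows) in NIH3T3 (left) and B16F10 (right), each point 1 gene by its brightest probe set. Black bars are list medians and the dashed line is the median of all genes. The row of serine, one-carbon and proline enzymes has its median at -0.61 on the left and 0.92 on the right.

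Transcription factors with a known part in amino acid and growth control were set beside the enzymes. Of all tested probe sets, 0.923% were called higher in B16F10, and 6.47% higher and 6.32% lower in NIH3T3. In B16F10, 5 of 10 rose: Atf3 (2.21), Cebpg (1.19), Ddit3 (1.15) and Cebpb (0.89), all of them partners or targets in the same stress response, and Atf4 itself, named after its values were seen. Atf4 had 7300 in the B16F10 control and 11152, 12194 and 10955 in the clones (0.65, adjusted p = 0.043), and in NIH3T3 9758 in the control and 11591, 10494 and 10068 (0.13, adjusted p = 0.5). In NIH3T3, 3 of 10 rose, namely Mycn (7.65, at 1 of its 2 tested probe sets, from 64.0 to 12741, 15482 and 15838), Nfe2l2, the oxidant-response factor (1.17), and Atf3 (1.49). Of 9 effectors of the integrated stress response, 6 rose in B16F10, led by Nupr1 (4.49), Trib3 (4.01), Ddit4 (3.15) and Chac1 (2.88). In NIH3T3, 1 rose, the translation inhibitor gene Eif4ebp1 (0.84), and 1 fell, Cth, which is in both lists. Whether these factors bear on the enzymes was not tested.

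The genes most like an enzyme gene over the 8 arrays were found by Pearson's r of the log2 values, as a description. For Aldh1l2, the gene with the largest change in NIH3T3, they were Pdcd4 (r = 0.970), Mxd4 (r = 0.957) and Itsn1 (r = 0.957). Pdcd4 had -1.75 in NIH3T3 and 1.65 in B16F10, and Mxd4 -1.74 and 1.60. Itsn1 was dim, with signals of 77.8 to 158, and had -0.52 and 0.48, neither called. For Psph, the gene with the largest change in B16F10, they were Coq9 (r = 0.988), Fahd2a (r = 0.980) and Mrnip (r = 0.978). These had 0.43, 0.56 and 1.31 in B16F10 and -0.11, -0.28 and -0.44 in NIH3T3, none of them called. The signals of Fahd2a, 44.5 to 81.4, lay near the filter level.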

How the data were processed

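The authors deposited intensities on a linear scale, 1 for each of 45101 probe sets in each of 8 samples, made with MAS5, per the submitters' processing notes. The sources used here give no version or settings. Deposited trimmed means (2% removed at each end) were 500.003 in the B16F10 columns and 143 to 189 in the NIH3T3 columns, so every column was multiplied to 500. Values became log2(signal + 9), where 9 is the rounded percentile 25 of all values. The 64 control probe sets and 19801 others with a mean log2 below the overall median (signal 49.3) in each line were left out. Symbols came from the platform's annotation, updated by gene identifier through GRCm38.p6, so that 34958 probe sets had 1 symbol, while 932 had several and 9211 had none.

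limma 3.58.1 in R 4.3.3 fitted 4 group means to all genes and arrays (8.50 degrees of freedom, intensity trend) and an additive model with cell line (9.19). Tests were two-sided, with Benjamini-Hochberg adjustment over 25236 probe sets, after the fit had been tested on simulated data. Members and lists were chosen with earlier results of these data known. The genes named from other lists are those called, at most 4 for each line, or the largest change where none was called, and the 3 most correlated with the member that changed most in each line. The alternatives were 3 scalings, pseudocounts of 1 and 50, 2 filters, no intensity trend, a line's own arrays, averaged probe sets and leaving out each PGC7 array. The number of arrays limits the precision.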

Additional observations from a re-analysis of the deposited data

Results flagged for a closer look

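The change from control to PGC7 differed between B16F10 and NIH3T3 by the test of that difference for 6 of the 9 measured enzyme genes. The difference on the log2 scale was 2.57 for Aldh1l2, 2.17 for Aldh18a1, 2.08 for Psph, 1.90 for Mthfd2, 1.53 for Psat1 and 0.95 for Phgdh, each higher in 3 of 3 B16F10 clones and lower in 3 of 3 NIH3T3 PGC7 arrays than in the line's own control.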

How the results depend on the processing

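The difference between the lines kept its direction for the 6 called genes under all 15 alternatives, from 0.13 (Phgdh, poly-A scaling) to 2.74 (Aldh1l2). The number of enzyme genes called for it went from 6 to 3 on the deposited values and to 1 without the intensity trend. It was 3 to 8 with 1 PGC7 array left out, the 8 being 6 higher and 2 lower. In NIH3T3 the count of 2 became 1 without the trend and 1 with that line's arrays alone, and was 2 to 6 with an array left out. It became 3 with the pseudocount of 50 and 3 with the stricter filter, where Mthfd1l was called higher. On the poly-A scale the 2 were 1 higher (Mthfd1l) and 1 lower (Aldh1l2). In B16F10 the count of 1 became 0 on the deposited values, 0 without the trend, 2 with the stricter filter, 2 with averaged probe sets and 5 with its own arrays alone, and was 0 to 5 with an array left out. Poly-A scaling turned Mthfd1l (-0.33), Phgdh (-0.25) and Shmt2 (-0.16) below 0 in B16F10 and Shmt2 (-0.71) for the difference between lines, averaging probe sets turned Shmt1 in NIH3T3 (-0.043), and with an array left out the difference of Shmt2 ran from -0.016 (without NIH3T3 clone 2; -0.014 without B16F10 clone 2) to 0.24. None of these was called. The counts across both lines and between the lines kept within 1.5 times theirs. Of all called probe sets for the difference, 55.2% were higher, against 71.0% as deposited and 9.39% on the poly-A scale. In NIH3T3 50.6% of calls were higher, against 36.7% as deposited and 73.9% on the poly-A scale, in B16F10 77.7% against 11.0% on the poly-A scale, and between the lines 41.3% against 85.7%, 54.2% and 71.8% as deposited, after quantile normalization and on the poly-A scale. The number called in B16F10 was 300, or 2196 with its own arrays alone and 1814 without the uncloned NIH3T3 array. Of all probe sets, 12.8% were called in NIH3T3 and 6.88% for the difference, against 23.9% and 17.2% without that uncloned array. The cause of these shifts was not tested. No paired analysis was possible because the controls carry no clone number and clone numbers of different lines name different clones. Leaving out a control was not possible, since each line has 1.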
